A study of Mus musculus with 4 samples.

Results

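T-box genes encode transcription factors that share a DNA-binding domain, the T-domain, and 8 of them, Tbx1, Tbx2, Tbx3, Tbx4, Tbx5, Tbx15, Tbx18, and Tbx20, were followed through the cell types of embryonic mouse thymic lobes. They are members of 1 gene family and were chosen by name, out of 27998 genes in each library, with earlier results of these data known. The 9 other T-box genes measured are given apart. All 8 members followed had at least 1 unique molecular identifier (UMI, the tag that marks 1 captured transcript) in each of the 4 libraries. The lobes came from E13 to 13.5 embryos of C57BL/6 mice carrying the Tbx1 neo2 allele, a hypomorph in which a neomycin cassette sits in an intron of Tbx1. Homozygous embryos, Tbx1neo2/neo2, model the hypoplastic thymus of 22q11.2 deletion syndrome. Pregnant females of Tbx1+/neo2 intercrosses had been injected early in gestation with an ethanol carrier, with minoxidil, a drug that opens potassium channels, or with prostaglandin E2 (PGE2). There was 1 library for each of Tbx1+/+ carrier, Tbx1neo2/neo2 carrier, Tbx1neo2/neo2 minoxidil, and Tbx1neo2/neo2 PGE2, and all 4 were made from dissected, trypsin-digested lobes by droplet scRNA Seq. Lobes were pooled for the hypoplastic tissue, how many embryos each library holds is not stated, and no wild-type library received a drug.

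T-box factors bind a common DNA element, some as activators and others as repressors, and act by dose, so that loss of a single copy of several of them causes a congenital syndrome. Tbx1 is needed in the pharyngeal arches, pouches, and arch arteries from which the thymus, parathyroids, and outflow tract arise, and is the main gene behind the thymic and cardiac features of 22q11.2 deletion syndrome. Tbx2 and Tbx3 are repressors of limb, heart, and lung mesenchyme, while Tbx4 and Tbx5 are activators that mark hindlimb and forelimb fields and act in lung mesenchyme and, for Tbx5, the heart. Tbx15 and Tbx18 shape skin, skeletal, and somite-derived mesenchyme, Tbx18 also marks mesothelium, epicardium, and mural cells of vessels, and Tbx20 acts in the heart.

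The members lie at separate loci, with 2 linked pairs. On GRCm38 with the GENCODE vM21 annotation, Tbx1 (ENSMUSG00000009097) lies on chromosome 16 (18580979 to 18590671, minus strand). Tbx2 (ENSMUSG00000000093, 85832551 to 85841948) and Tbx4 (ENSMUSG00000000094, 85886422 to 85916097) lie 44474 bases apart on chromosome 11, both on the plus strand. Tbx3 (ENSMUSG00000018604, 119670669 to 119684724) and Tbx5 (ENSMUSG00000018263, 119832668 to 119885219) lie 147944 bases apart on chromosome 5, both on the plus strand. Tbx15 (ENSMUSG00000027868) lies on chromosome 3 (99240381 to 99354259, plus strand), and Tbx18 (ENSMUSG00000032419, 87702800 to 87731260) and Tbx20 (ENSMUSG00000031965, 24718138 to 24774303) lie far apart on chromosome 9, both on the minus strand. The coding sequence at the start of the T-domain is shown for the targeted gene and for the 4 members with the most UMIs, because it is the part the family shares and the part in which reads of members could be mistaken for one another. Each stretch is 60 coding bases, written 5′ to 3′ on the strand of the gene, and capitals mark the 30 bases that were identical in all 8 members.
Tbx1, chr16:18586538-18586597, minus strand, exon 1: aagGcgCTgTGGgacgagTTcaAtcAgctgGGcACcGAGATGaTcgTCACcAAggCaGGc
Tbx2, chr11:85833440-85833499, plus strand, exon 1: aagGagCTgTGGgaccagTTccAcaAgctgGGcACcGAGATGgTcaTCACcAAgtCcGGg
Tbx3, chr5:119672343-119672402, plus strand, exon 1: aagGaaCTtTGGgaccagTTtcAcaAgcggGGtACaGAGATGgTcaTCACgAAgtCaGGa
Tbx5, chr5:119838729-119838788, plus strand, exon 3: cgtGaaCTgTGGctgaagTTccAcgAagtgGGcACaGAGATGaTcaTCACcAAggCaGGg
Tbx18, chr9:87729463-87729522, minus strand, exon 2: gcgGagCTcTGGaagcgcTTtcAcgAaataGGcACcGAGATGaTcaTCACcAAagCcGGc
In this stretch Tbx2 was 83.3% identical to Tbx1, Tbx20 80%, Tbx4 78.3%, Tbx3 73.3%, Tbx5 71.7%, and Tbx15 and Tbx18 68.3% each. The longest exact run shared by the transcripts of any 2 members, over the 28 pairs, was 32 bases (Tbx4 with Tbx20).

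The 4 libraries held 3362 to 11908 barcodes, and the cells kept had a median of 14108 to 41084 UMIs, deeper in the drug libraries than in the carrier libraries. Any pair of libraries shared 4 to 35 barcodes, at most 0.447% of the smaller library. Cells were grouped into 21 clusters without using the T-box genes, and 18 clusters were named from marker genes, none of which is a T-box gene. The cTEC cluster was led by Ccl25 and Psmb11, genes of cortical thymic epithelium. The 3 unnamed clusters took up 20.1% of Tbx1+/+ carrier cells and 7.47% to 9.37% of the cells of each other library. Mesenchymal cells numbered 2869, 6537, 1001, and 878 in the order Tbx1+/+ carrier, Tbx1neo2/neo2 carrier, minoxidil, and PGE2, which was 25.0%, 61.2%, 31.3%, and 21.1% of the kept cells. Lists of 4 values below keep this order. The makeup of the mesenchymal class also differed, since pericyte-like cells made up 26.7%, 4.08%, 22.8%, and 23.8% of it, capsular fibroblast-like cells 13.1%, 35.6%, 16.4%, and 17.3%, and mesothelial-like cells 9.31%, 0.811%, 6.19%, and 2.96%. Chondrocyte-like cells made up 18.3%, 17.4%, 15.1%, and 11.3% of the class. The chondrocyte markers summed over mesenchymal cells, given below, differed far more between the carrier libraries than this share. Whether the chondrocyte-like cluster holds the same cell type in each library was not tested, which limits every comparison within it. The smooth muscle-like cluster also had the cartilage genes Col9a3, Matn4, and Col11a1 among its leading genes, and made up 8.47%, 18.9%, 12.9%, and 19.1% of the class. Whether it holds the same cell type in each library was not tested either, which limits every comparison within it.

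A level is the number of UMIs of a gene in all cells of a class, scaled to 1000000 UMIs of any gene in those cells (CPM), so levels are compared within a gene and not between genes. Intervals in parentheses are exact 95% Poisson limits for levels and Clopper-Pearson limits for shares of cells. They cover counting error alone, since with 1 library per condition there was no spread between embryos and no test. A gene was called higher or lower where 2 levels were 1.5-fold or more apart with intervals that stayed clear of each other, among genes with at least 20 UMIs in both libraries together. Which embryos, dissections, or runs the libraries came from cannot be told apart from genotype and drug.

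Most T-box transcripts were in mesenchymal cells. Over all libraries, 88.3% of the 14692 UMIs of Tbx2, 89.4% of the 15858 of Tbx3, 90.9% of the 10773 of Tbx5, and 91.3% of the 6397 of Tbx18 were in cells of the mesenchymal class. The rarer Tbx4 (773 UMIs), Tbx15 (810), and Tbx20 (229) had 90.7%, 89.0%, and 91.3% of their UMIs there. Tbx1, with 1655 UMIs, was the exception, with 34.6% of its UMIs in mesenchymal, 25.1% in endothelial, 24.2% in epithelial, and 9.31% in hematopoietic cells. The heatmap of the 8 members over cell types shows this division, with Tbx1 higher in endothelial than in mesenchymal cells of every library.

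**Figure D1:**
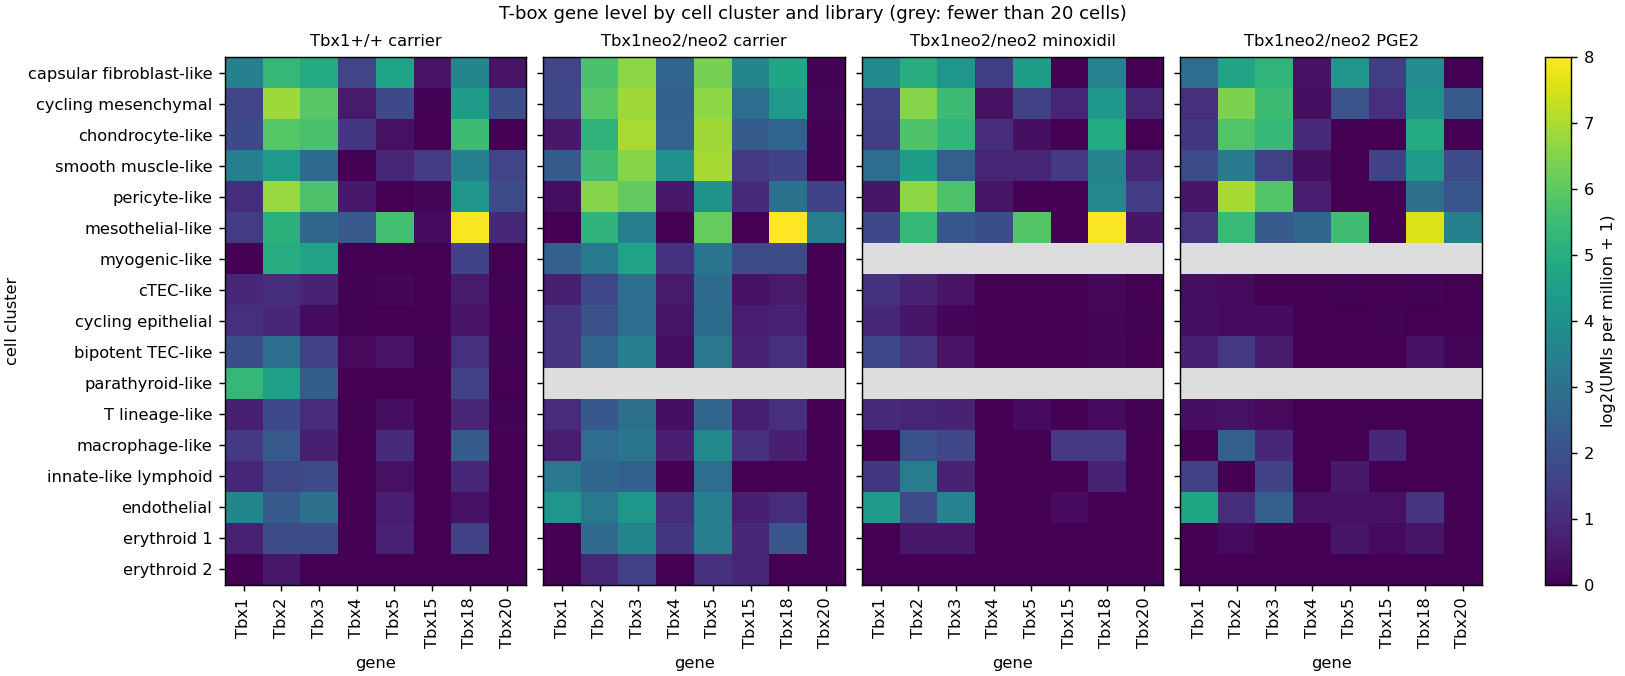
Level of each T-box gene (columns) in each named cluster (rows), as log2(CPM + 1), with 1 panel per library grey for clusters of fewer than 20 cells, and a colour scale that ends at 8. Tbx2, Tbx3, and Tbx18 are seen in the mesenchymal rows of all 4 libraries, Tbx5 across those rows in the Tbx1neo2/neo2 carrier panel and mainly in the mesothelial and fibroblast rows of the others, and Tbx1 in endothelial and, in Tbx1+/+, parathyroid cells.

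Tbx1, the targeted gene, was counted in all 4 libraries, and its summed level over all kept cells was the same in both carrier libraries within counting error. That level was 2.28 CPM (2.11 to 2.46) in Tbx1+/+ carrier, 2.33 (2.12 to 2.56) in Tbx1neo2/neo2 carrier, 2.46 (2.21 to 2.72) with minoxidil, and 1.14 (0.982 to 1.33) with PGE2. The UMIs count transcripts of the gene and do not read the cassette, so the libraries are referred to by their labels and Tbx1 gave no check of genotype over all cells. The cell types held the gene in different proportions. The highest levels were in 85 parathyroid-like cells of the Tbx1+/+ carrier library, led by Pth and Chga, with 39.0 CPM (31.8 to 47.3) and a Tbx1 UMI in 55.3% of cells. The other libraries had 0, 0, and 1 cell of this cluster, so no comparison could be made. In Tbx1+/+ carrier the parathyroid-like cells were followed by endothelial (11.7 CPM), capsular fibroblast-like (10.2), and smooth muscle-like cells (9.74), whose intervals overlapped, and then by bipotent TEC-like (2.82), chondrocyte-like (2.45), and cycling mesenchymal cells (2.16), whose intervals overlapped too.

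Endothelial cells had the next highest Tbx1 level in Tbx1+/+ and the highest in the other 3 libraries. There were 202, 244, 96, and 100 such cells, and their Tbx1 levels were 11.7 (9.62 to 14.1), 16.9 (13.9 to 20.4), 20.001 (16.4 to 24.2), and 24.9 CPM (20.04 to 30.5). The Tbx1+/+ interval overlapped that of Tbx1neo2/neo2 carrier and lay below those of both drug libraries. The ratio of Tbx1neo2/neo2 carrier to Tbx1+/+ carrier was 1.44, and the ratios of minoxidil and PGE2 to Tbx1neo2/neo2 carrier were 1.19 and 1.47, all under 1.5. The share of endothelial cells with a Tbx1 UMI was 33.7%, 28.7%, 50%, and 36%. After each cell was thinned to 5000 UMIs these shares were 7.41%, 8.74%, 11.2%, and 15.2%, and 13, 61, 16, and 34 shallower cells were left out. On the log2 scale Tbx1neo2/neo2 carrier exceeded Tbx1+/+ carrier by 0.53 (0.13 to 0.92), and thinning brought the difference to 0.12. The 9 endothelial markers summed to 3717 to 4160 CPM in these cells in the 4 libraries. The 4 lymphatic markers summed to 75.3 to 79.4 CPM in the first 3 libraries and to 653 CPM with PGE2, and the part this had in the Tbx1 level after PGE2 was not tested.

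Within the mesenchyme, Tbx1 in the Tbx1neo2/neo2 carrier library was lower in fibroblast-, smooth muscle-, and chondrocyte-like cells, while the class as a whole differed less. The class levels were 3.29 (2.82 to 3.83), 2.29 (2.004 to 2.60), 3.62 (3.004 to 4.33), and 2.01 CPM (1.48 to 2.66), and the first 2 differed by -0.53 (-0.82 to -0.23) on the log2 scale, less than the 1.5-fold limit. With cells of up to 5% instead of 10% mitochondrial UMIs this difference turned to 0.39, and as the mean over 5 clusters of equal weight it was -1.48. The levels of single clusters were not recomputed under the 5% limit. In capsular fibroblast-like cells the levels were 10.2 (7.78 to 13.1), 2.16 (1.70 to 2.71), 12.8 (9.66 to 16.5), and 6.34 CPM (3.92 to 9.69), so only the Tbx1neo2/neo2 carrier library was low. The ratio of the carrier libraries there was -2.24 (-2.75 to -1.73) on the log2 scale, and minoxidil and PGE2 exceeded the Tbx1neo2/neo2 carrier by 2.56 (2.04 to 3.08) and 1.55 (0.78 to 2.27). Smooth muscle-like cells had 9.74, 3.99, 6.33, and 2.60 CPM, with -1.29 (-1.92 to -0.64) between the carrier libraries. Chondrocyte-like cells had 2.45, 0.447, 1.80, and 1.38 CPM from 17, 6, 7, and 3 UMIs, with -2.45 (-4.08 to -1.04) between the carrier libraries. Cycling mesenchymal cells had 2.16, 2.33, 1.99, and 1.15 CPM, and pericyte-like cells 1.06, 0.231, 0.406, and 0.399 CPM from 14, 1, 3, and 2 UMIs. In 281 myogenic-like cells of the Tbx1neo2/neo2 carrier library, which were led by Myog and Myod1, Tbx1 stood at 4.48 CPM (3.06 to 6.32). The 28 such cells of Tbx1+/+ carrier had no Tbx1 UMI, with an upper limit of 7.47 CPM, so a difference was not detectable at this depth.

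**Figure D2:**
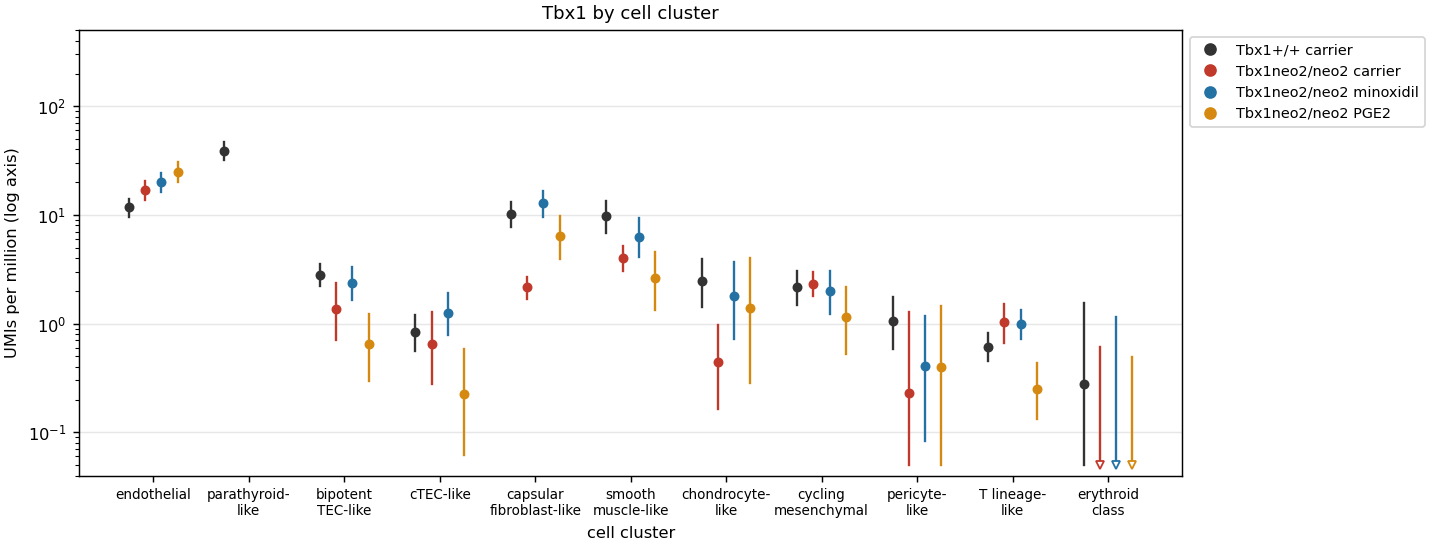
Tbx1 level in CPM (vertical log axis) in 11 cell groups (horizontal axis), with 1 colour per library, bars for the 95% Poisson interval, and open triangles for 0 UMIs. The fibroblast points of Tbx1+/+ carrier and minoxidil (10.2 and 12.8 CPM) lie above that of Tbx1neo2/neo2 carrier (2.16 CPM), and the endothelial points lie between 11.7 and 24.9 CPM.

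In thymic epithelial cells Tbx1 was low in every library. The epithelial class had 2.37 (2.09 to 2.68), 1.11 (0.807 to 1.49), 1.37 (1.09 to 1.70), and 0.332 CPM (0.203 to 0.513). Tbx1 was called lower in Tbx1neo2/neo2 carrier than in Tbx1+/+ carrier epithelium, by -1.09 (-1.59 to -0.63) on the log2 scale, in a comparison in which 4.34% of the tested genes were called lower. Without the parathyroid-like cluster the difference was -0.38, and with cells of up to 5% mitochondrial UMIs it was -0.30. Bipotent TEC-like cells had 2.82, 1.37, 2.38, and 0.642 CPM, and cTEC-like cells had 0.836, 0.642, 1.26, and 0.226 CPM. Hematopoietic cells had 0.668 (0.506 to 0.865), 1.24 (0.870 to 1.72), 0.975 (0.708 to 1.31), and 0.309 CPM (0.180 to 0.494). Their level in Tbx1neo2/neo2 carrier was 1.86-fold that of Tbx1+/+ carrier, or 0.90 (0.25 to 1.52) on the log2 scale, the opposite direction to the epithelial class, and PGE2 was 4.02-fold lower than Tbx1neo2/neo2 carrier. The intervals of the cTEC levels overlapped the hematopoietic ones in every library. Hematopoietic Tbx1 was itself above the proportion of other mesenchymal RNA, as given below. The overlap therefore cannot decide whether cTEC-like cells express Tbx1. Of the hematopoietic clusters, innate-like lymphoid cells had 0.853, 8.30, 1.46, and 1.90 CPM, from 3, 9, 2, and 4 UMIs. Erythroid cells had 1 Tbx1 UMI in 1 of the 4 libraries and none in the other 3.

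Tbx1neo2/neo2 carrier mesenchyme was compared with Tbx1+/+ carrier mesenchyme to ask how the family differs between the libraries with these labels. All 8 members passed the limit of 20 UMIs. In Tbx1neo2/neo2 mesenchyme 4 members were called higher (Tbx3, Tbx4, Tbx5, and Tbx15) and 3 lower (Tbx2, Tbx18, and Tbx20), and Tbx1 was not called. Over all 16124 genes tested in this comparison 11.9% were called higher and 12.1% lower, with a median log2 ratio of 0.01 against 0.32 for the members. The members were chosen with earlier results of these data known, so the shares describe them and are no test. Of the 9 other T-box genes 4 could be tested here, of which 1 was called higher and 0 lower. The plot of mesenchymal levels shows the 8 members in the 4 libraries side by side.

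**Figure D3:**
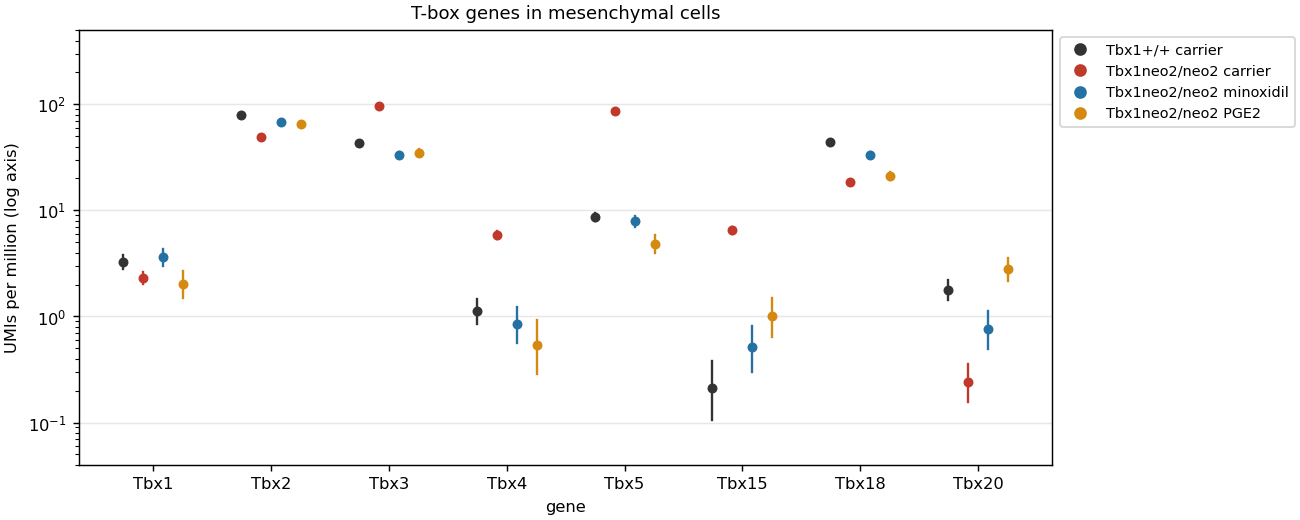
Level in CPM on a log axis (vertical) of the 8 T-box genes (horizontal) in mesenchymal cells, with 1 colour per library and bars for the 95% Poisson interval. For Tbx3, Tbx4, Tbx5, and Tbx15 the Tbx1neo2/neo2 carrier point lies above the other 3, and for Tbx2, Tbx18, and Tbx20 it lies below them.

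Tbx5 had the widest difference among the 4 members with the most UMIs. Its mesenchymal levels were 8.68 (7.90 to 9.52), 87.3 (85.5 to 89.1), 7.88 (6.95 to 8.90), and 4.85 CPM (4.01 to 5.82), so the Tbx1neo2/neo2 carrier library stood alone. The level there was 10.1-fold that of Tbx1+/+ carrier, or 3.33 (3.19 to 3.47) on the log2 scale. A Tbx5 UMI was found in 8.64%, 57.3%, 10.2%, and 6.15% of mesenchymal cells, and in 3.72%, 32.8%, 2.43%, and 1.40% after thinning, although the Tbx1neo2/neo2 carrier cells were the shallowest, with a median of 13349 UMIs. The Tbx5 difference was uneven over the clusters. In mesothelial-like cells, the cells that line body cavities and organs, Tbx5 was at 46.8 (41.3 to 52.8), 68.4 (54.9 to 84.2), 56.6 (47.6 to 66.7), and 46.0 CPM (32.0 to 64.0), without a 1.5-fold difference between the carrier libraries. In chondrocyte-like cells it was at 0.288, 114, 0.258, and 0 CPM, from 2 UMIs in 525 cells of Tbx1+/+ carrier and 1532 UMIs in 1135 cells of Tbx1neo2/neo2 carrier. Whether these are cells of the same type was not tested. Smooth muscle-like cells had 0.812, 120, 0.759, and 0 CPM, cycling mesenchymal cells 2.42, 97.9, 1.89, and 3.20 CPM, and capsular fibroblast-like cells 24.1, 80.9, 21.5, and 16.9 CPM. In pericyte-like cells no Tbx5 UMI was found in 765 cells of Tbx1+/+ carrier, or in 228 and 209 cells of the drug libraries. With the 0 of Tbx1+/+ carrier set to a floor of 3 counts, its share of cells with a UMI would be 0.392%. The 267 pericyte-like cells of Tbx1neo2/neo2 carrier had 15.7 CPM (12.2 to 19.9), at least 69.5-fold higher than Tbx1+/+ carrier when its 0 is set to a floor of 3 counts. Hematopoietic cells had 0.269 and 6.004 CPM of Tbx5 in the same 2 libraries, and the part of background RNA from other cells in the pericyte level was not tested. In Tbx1+/+ carrier, Tbx5 was thus at 2.42 CPM or less in these clusters other than the mesothelial- and fibroblast-like ones.

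Tbx4, the linked partner of Tbx2 and the closest relative of Tbx5 in the family, was rarer and followed the same order of libraries. Its mesenchymal levels were 1.12 (0.853 to 1.45), 5.86 (5.40 to 6.35), 0.845 (0.562 to 1.22), and 0.543 CPM (0.289 to 0.929), with a 5.21-fold ratio of the carrier libraries. Smooth muscle-like cells of Tbx1neo2/neo2 carrier had the highest Tbx4 level of these clusters, 15.6 CPM (13.6 to 17.8) from 223 UMIs, while the 243 such cells of Tbx1+/+ carrier had none. This was at least 19.2-fold higher with the 0 set to a floor of 3 counts. Capsular fibroblast-like cells had 2.21, 5.15, 1.79, and 0.302 CPM, cycling mesenchymal cells 0.509, 4.54, 0.284, and 0.256 CPM, and chondrocyte-like cells 1.44, 4.77, 1.03, and 0.920 CPM. Pericyte-like cells had 0.406 to 0.599 CPM in all 4 libraries, from 2 to 6 UMIs each. Mesothelial-like cells, which had the highest Tbx4 level of the Tbx1+/+ carrier clusters, went the other way, with 3.74, 0, 2.81, and 5.26 CPM from 21, 0, 7, and 4 UMIs.

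Tbx3, the linked neighbour of Tbx5, was also higher in Tbx1neo2/neo2 carrier mesenchyme, by a smaller ratio and from a higher start. Its levels were 43.4 (41.6 to 45.2), 97.2 (95.3 to 99.1), 33.6 (31.7 to 35.7), and 35.2 CPM (32.8 to 37.6), and the carrier libraries differed by 1.16 (1.10 to 1.23) on the log2 scale. The share of cells with a Tbx3 UMI was 42.0%, 64.1%, 45.8%, and 43.7%, and 18.2%, 36.5%, 15.1%, and 14.0% after thinning. The smooth muscle-like cluster was the most different, with 5.95 (3.73 to 9.02), 94.7 (89.7 to 99.9), 4.30 (2.51 to 6.89), and 1.95 CPM (0.892 to 3.71), a ratio of 15.9 between the carrier libraries. Whether this cluster holds cells of the same type in each library was not tested. In capsular fibroblast-like cells Tbx3 was at 28.9, 96.6, 17.2, and 36.5 CPM, in chondrocyte-like cells at 51.1, 123, 37.3, and 40.0 CPM, and in cycling mesenchymal cells at 60.1, 115, 43.4, and 43.6 CPM. Pericyte-like cells differed by less than 1.5-fold between the libraries, with 53.2 (49.4 to 57.3), 65.9 (58.5 to 74.1), 53.3 (48.2 to 58.8), and 55.5 CPM (49.2 to 62.4).

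Tbx2, a repressor like Tbx3, went the other way over the class and both ways over its clusters. Mesenchymal levels were 79.5 (77.1 to 82.0), 49.2 (47.8 to 50.6), 68.5 (65.7 to 71.4), and 64.8 CPM (61.7 to 68.1), so Tbx1neo2/neo2 carrier was the lowest of the 4, by -0.69 (-0.75 to -0.63) against Tbx1+/+ carrier on the log2 scale. Thinned cells had a Tbx2 UMI in 28.3%, 20.5%, 23.7%, and 22.7% of cases. Cycling mesenchymal cells (112, 60.1, 92.4, and 85.5 CPM) and chondrocyte-like cells (57.9, 35.5, 55.1, and 55.7 CPM) had the lowest level in Tbx1neo2/neo2 carrier. Smooth muscle-like cells (19.2, 45.8, 20.7, and 9.11 CPM) and capsular fibroblast-like cells (38.9, 50.6, 31.3, and 24.5 CPM) had the highest there. Tbx2 in pericyte-like cells, the cluster whose share of the class was 26.7% in Tbx1+/+ and 4.08% in Tbx1neo2/neo2 carrier, was at 108, 92.1, 99.6, and 119 CPM, and in mesothelial-like cells at 34.2, 36.1, 39.7, and 40.7 CPM. With the 5 larger mesenchymal clusters given equal weight, the mean Tbx2 level was 67.2, 56.8, 59.8, and 58.8 CPM, so the carrier libraries then differed by less than 1.5-fold.

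Tbx18 was lower in Tbx1neo2/neo2 carrier mesenchyme as a whole, and the mesothelial-like cells, the cluster with its highest level, were fewer there. Its class levels were 44.6 (42.8 to 46.4), 18.7 (17.9 to 19.6), 33.5 (31.5 to 35.5), and 21.2 CPM (19.4 to 23.2), with -1.25 (-1.34 to -1.16) between the carrier libraries on the log2 scale, or -0.61 with cells of up to 5% mitochondrial UMIs. Tbx18 was among the 10 leading genes of the mesothelial-like cluster, so its high level there, 192 to 282 CPM, describes that cluster and is not a result. The other clusters were less alike. Chondrocyte-like cells had 43.3 (38.6 to 48.5), 4.92 (3.81 to 6.26), 28.8 (23.8 to 34.7), and 29.5 CPM (22.7 to 37.6), with Tbx1neo2/neo2 carrier 8.81-fold lower than Tbx1+/+ carrier. Smooth muscle-like cells had 10.6, 2.03, 10.9, and 19.7 CPM and pericyte-like cells 17.0, 6.94, 12.3, and 6.79 CPM. Capsular fibroblast-like cells had 11.4 (8.82 to 14.5), 25.4 (23.7 to 27.1), 10.7 (7.92 to 14.2), and 13.6 CPM (9.91 to 18.2), the opposite order, and cycling mesenchymal cells had 16.4 to 20.1 CPM in all 4 libraries.

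The plot of 4 members over the mesenchymal clusters sets these patterns side by side.

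**Figure D4:**
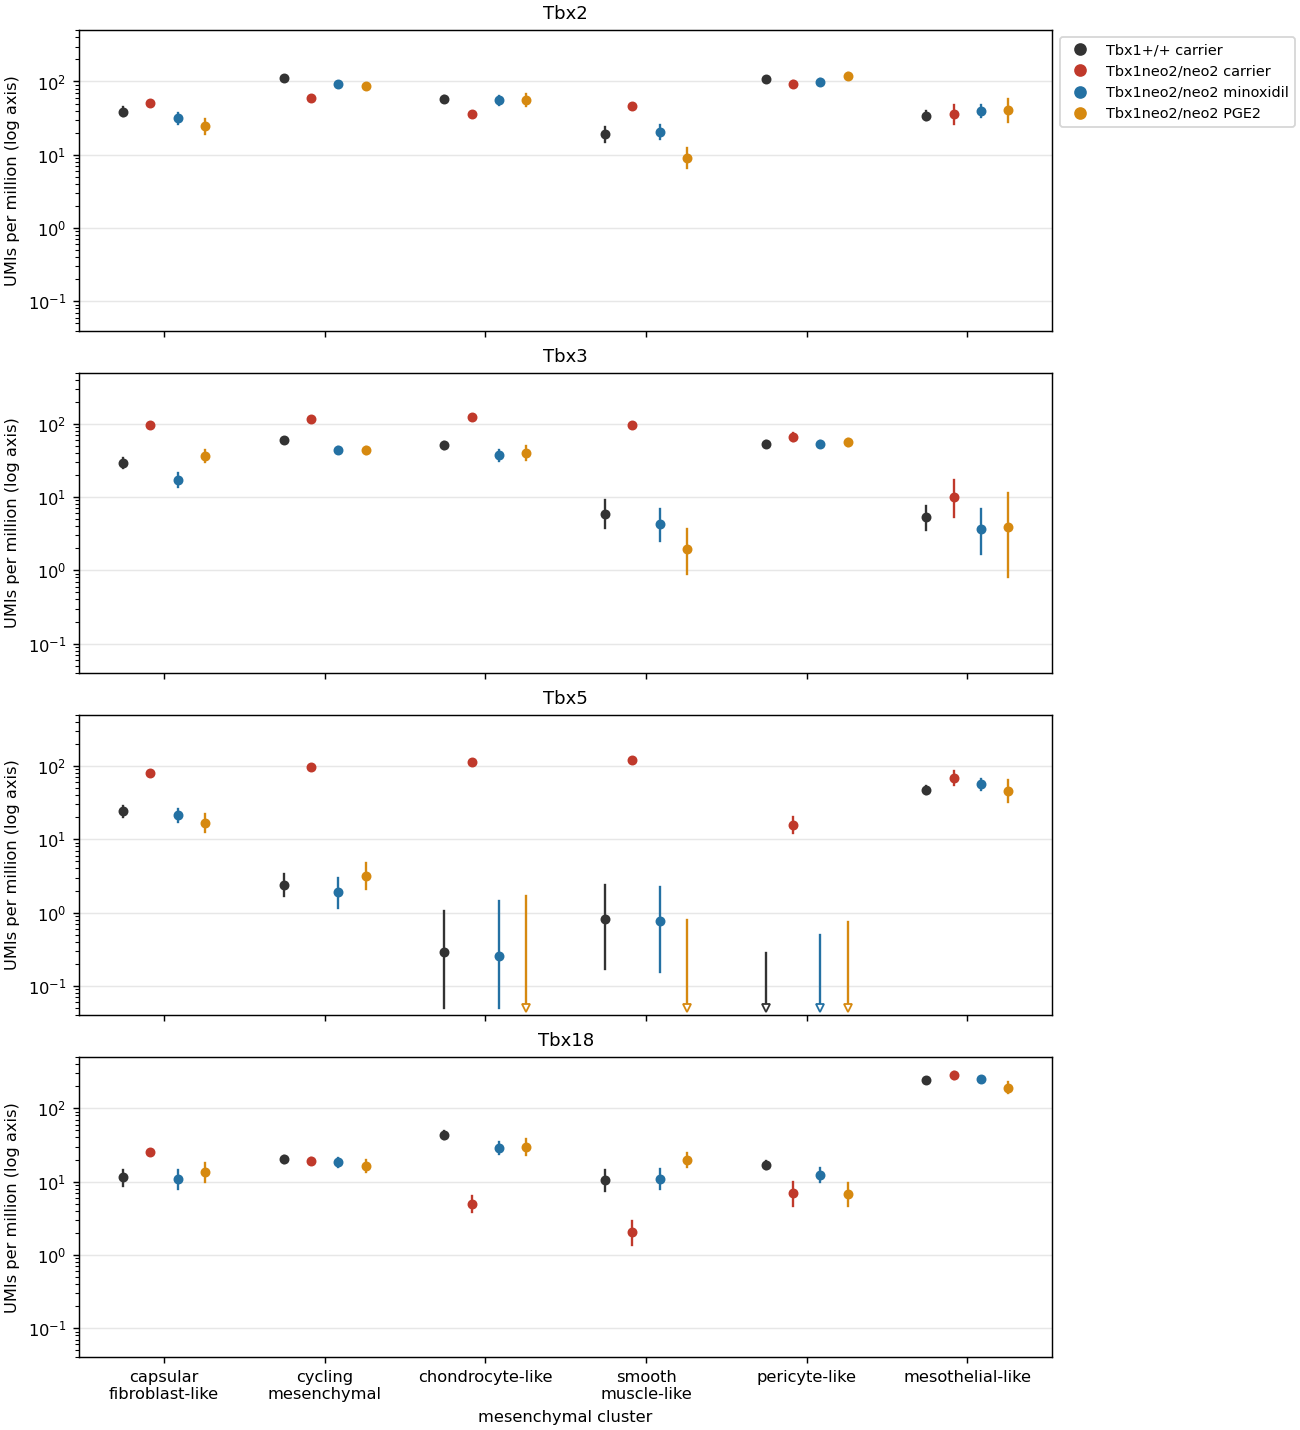
Level in CPM on a log axis (vertical) of Tbx2, Tbx3, Tbx5, and Tbx18 (1 panel each) in 6 mesenchymal clusters (horizontal), with 1 colour per library, 95% Poisson bars that are cut at 0.05 CPM, and open triangles for clusters with 0 UMIs. For Tbx5 the Tbx1neo2/neo2 carrier points lie at 15.7 to 120 CPM in every cluster shown, while those of the other libraries reach this range in the mesothelial- and fibroblast-like clusters only.

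Tbx15 and Tbx20 were rare, and the Tbx1neo2/neo2 carrier library was the highest of the 4 for Tbx15 and the lowest for Tbx20. Mesenchymal Tbx15 was at 0.213 (0.106 to 0.381), 6.51 (6.03 to 7.02), 0.513 (0.299 to 0.822), and 1.003 CPM (0.643 to 1.49), from 11, 669, 17, and 24 UMIs, so the Tbx1neo2/neo2 carrier level was 30.5-fold that of Tbx1+/+ carrier. Its level was 0.340, 11.3, 0, and 1.81 CPM in capsular fibroblast-like cells and 0.0636, 6.39, 0.757, and 1.15 CPM in cycling mesenchymal cells. In smooth muscle-like cells it was at 1.62, 1.54, 1.52, and 1.95 CPM, alike in the 4 libraries within counting error. Mesenchymal Tbx20 was at 1.78 (1.44 to 2.19), 0.243 (0.157 to 0.359), 0.755 (0.488 to 1.11), and 2.80 CPM (2.17 to 3.56), from 92, 25, 25, and 67 UMIs, and Tbx1neo2/neo2 carrier was 7.33-fold lower than Tbx1+/+ carrier. Cycling mesenchymal cells had 2.73, 0.109, 0.757, and 3.84 CPM of Tbx20, and pericyte-like cells had 2.57, 2.08, 1.76, and 3.40 CPM. Mesothelial-like cells went the other way between the carrier libraries, with 0.890, 9.23, 0.401, and 10.5 CPM from 5, 12, 1, and 8 UMIs, under the limit for a call, and held 12 of the 25 mesenchymal Tbx20 UMIs of Tbx1neo2/neo2 carrier in 53 cells. No endothelial cell of any library had a Tbx20 UMI.

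Counted by cluster, the comparison of the carrier libraries gave the following calls, each beside the share of all tested genes called in that cluster. Capsular fibroblast-like cells had 5 members higher (7.08% of genes) and 1, Tbx1, lower (10.8%). Chondrocyte-like cells had 4 higher (8.71%) and 3 lower (14.2%), cycling mesenchymal cells 4 higher (14.8%) and 2 lower (7.69%), and smooth muscle-like cells 4 higher (10.4%) and 2 lower (12.7%). Pericyte-like cells had 1 higher, Tbx5 (2.04%), and 1 lower, Tbx18 (2.05%). Of the 5 members that could be called in mesothelial-like cells none was, where 2.83% of genes were called higher and 2.8% lower, with 53 cells in the Tbx1neo2/neo2 carrier library. Tbx5 was higher in all 5 of the clusters other than the mesothelial one, and Tbx3 and Tbx4 in the 4 of those other than the pericyte cluster.

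In hematopoietic cells, Tbx2, Tbx3, and Tbx5 were found at about the proportion of other mesenchymal RNA. These cells, which should lack collagen, had 3.08%, 8.68%, 2.10%, and 0.893% of the mesenchymal level of 5 mesenchymal genes (Col1a1, Col1a2, Col3a1, Dcn, and Postn). Tbx5 in the same cells was at 3.10%, 6.88%, 1.97%, and 0.375% of its mesenchymal level, Tbx3 at 2.46%, 6.89%, 2.31%, and 0.672%, and Tbx2 at 3.05%, 8.07%, 1.58%, and 0.532%. Tbx1 in hematopoietic cells was at 20.3%, 54.3%, 26.9%, and 15.4% of its mesenchymal level, well above the 5 genes. A Tbx5 UMI was seen in 7.04% of hematopoietic cells of Tbx1neo2/neo2 carrier (median 25397 UMIs) against 57.3% of its mesenchymal cells, and in 2.08% against 32.8% after thinning. The part of background RNA from other cells in the hematopoietic levels of Tbx2, Tbx3, and Tbx5 was not tested. In Tbx1neo2/neo2 carrier epithelium 4 members (Tbx3, Tbx4, Tbx5, and Tbx15) were called higher than in Tbx1+/+ carrier, where 3.88% of genes were. Tbx5 there was at 6.49 CPM, beside 6.004 in hematopoietic and 6.002 in erythroid cells of the same library. Tbx4 was called from 15 against 7 UMIs. The part of background in these epithelial calls was not tested. In Tbx1neo2/neo2 carrier endothelium 3 members (Tbx2, Tbx3, and Tbx5) were called higher than in Tbx1+/+ carrier, and no member was lower. In that comparison 4.07% of genes were called higher and 3.61% lower. The 8 broad mesenchymal markers summed to 266, 1216, 510, and 202 CPM in the endothelial cells, and their part in these calls was not tested.

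**Figure D5:**
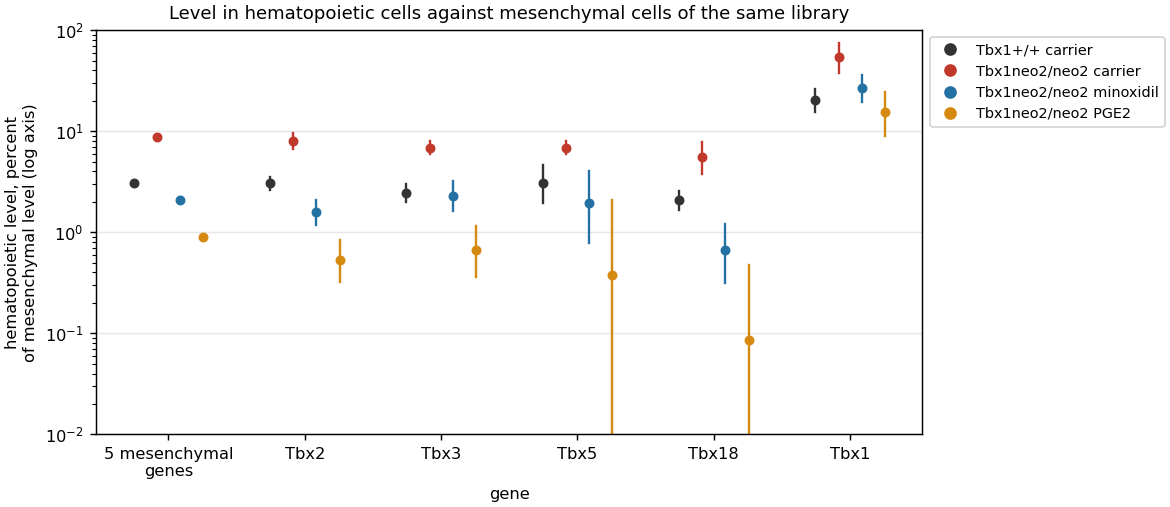
Level in hematopoietic cells as a percentage of the level in mesenchymal cells of the same library (vertical log axis), for the sum of 5 mesenchymal genes and for 5 T-box genes (horizontal axis), with 1 colour per library and 95% Poisson bars on the hematopoietic counts. Tbx2, Tbx3, Tbx5, and Tbx18 lie at or below the 5 mesenchymal genes or within their error, while Tbx1 lies at 15.4% to 54.3%.

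Minoxidil and PGE2 were each compared with the Tbx1neo2/neo2 carrier library, to ask whether the drugs given to the mother moved the mesenchymal T-box genes. Both comparisons use the Tbx1neo2/neo2 carrier library, which is also in the comparison with Tbx1+/+, so the 3 sets of ratios are not independent. With minoxidil 3 members were called higher (Tbx1, Tbx18, and Tbx20) and 4 lower (Tbx3, Tbx4, Tbx5, and Tbx15), where 12.6% of 15901 genes were called higher and 11.4% lower. With PGE2 1 member, Tbx20, was called higher and the same 4 were called lower, where 11.7% of 15783 genes were called higher and 12.1% lower. The median log2 ratio of the members was -0.53 with minoxidil and -0.83 with PGE2, against -0.02 and -0.06 for all genes tested.

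Tbx5 was 11.1-fold lower with minoxidil and 18.0-fold lower with PGE2 than in Tbx1neo2/neo2 carrier mesenchyme, with log2 ratios of -3.47 (-3.65 to -3.29) and -4.17 (-4.45 to -3.91). Tbx4 had log2 ratios of -2.79 (-3.40 to -2.25) and -3.43 (-4.35 to -2.65), and Tbx15 of -3.67 (-4.45 to -2.98) and -2.70 (-3.35 to -2.11). In thinned cells the Tbx4 ratio with minoxidil was -3.51 and the Tbx15 ratio with PGE2 -4.64. Tbx3 was lower by -1.53 (-1.62 to -1.44) and -1.47 (-1.57 to -1.37). For these 4 members both drug libraries lay on the side of Tbx1+/+ carrier. Tbx20 was higher by 1.63 (0.77 to 2.49) with minoxidil and 3.52 (2.84 to 4.25) with PGE2. Tbx18 was higher by 0.84 (0.73 to 0.95) with minoxidil, while the ratio with PGE2 was 0.18 (0.04 to 0.32) and not called. Tbx1 itself was higher by 0.66 (0.33 to 0.99) with minoxidil, or 1.58-fold, and had -0.19 (-0.67 to 0.26) with PGE2. Under the limit of 5% mitochondrial UMIs the minoxidil ratio of Tbx1 was 0.15.

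Because the clusters of the class differed in size between libraries, the mean over 5 clusters of equal weight was set beside the class levels. This mean leaves out the mesothelial- and myogenic-like clusters. It was 5.53, 85.8, 4.88, and 4.02 CPM for Tbx5, 39.9, 99.0, 31.1, and 35.5 for Tbx3, 0.922, 6.11, 0.854, and 0.459 for Tbx4, and 0.421, 4.84, 0.455, and 0.983 for Tbx15. It was 20.5, 11.7, 16.2, and 17.2 CPM for Tbx18, 1.56, 0.444, 0.655, and 1.97 for Tbx20, and 5.12, 1.83, 4.66, and 2.37 for Tbx1. With the sizes of these 5 clusters set equal, Tbx3, Tbx4, Tbx5, and Tbx15 were still highest and Tbx1, Tbx18, and Tbx20 lowest in the Tbx1neo2/neo2 carrier library. The minoxidil means of Tbx18 and Tbx20 then exceeded those of Tbx1neo2/neo2 carrier by less than 1.5-fold, although both genes were called higher over the class. In the mesothelial-like cluster, left out of the mean, Tbx4 and Tbx20 went the other way between Tbx1+/+ and Tbx1neo2/neo2 carrier. Tbx4 was at 3.74 and 0 CPM there, and Tbx20 at 0.890 and 9.23 CPM. The order of the means is therefore given for the 5 clusters only. Marker lists of other mesenchymal tissues moved with the same library. The 8 chondrocyte markers summed to 130, 1209, 153, and 128 CPM in mesenchymal cells, the 7 pericyte markers to 840, 290, 903, and 1072 CPM, and the 6 mesothelial markers to 192, 26.9, 129, and 57.7 CPM. The 6 myogenic markers summed to 39.2, 90.6, 50.5, and 20.4 CPM, the 5 markers of foregut or airway mesenchyme to 189, 92.0, 176, and 203 CPM, and the 8 cardiac muscle markers to 34.8, 28.8, 30.3, and 14.6 CPM. Matn1, a cartilage matrix gene, was at 0 in both drug libraries. The 6 smooth muscle markers summed to 410, 725, 619, and 1701 CPM and the 5 neuronal markers to 255, 35.6, 251, and 192 CPM. What part these differences in tissue had in the T-box levels was not tested. In levels summed over the class, fewer cells of a type and less RNA per cell cannot be told apart.

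Genes that act with T-box factors were taken from 3 lists. Of 31 genes of the Tbx1 pathway, 25 could be tested between the carrier libraries in mesenchyme, and 10 were called higher and 9 lower in Tbx1neo2/neo2, with a median log2 ratio of -0.12. Over all genes tested there, 11.9% were called higher and 12.1% lower, with a median of 0.01. These shares also stand beside the counts of the other lists in this comparison. Msc, a repressor active in pharyngeal muscle precursors, was at 23.0 against 0.756 CPM, and the growth factor gene Fgf8 at 0.564 against 0.116. Lower were Tcf21 (8.87 against 92.6 CPM), a factor of pharyngeal muscle and of epicardial and lung mesenchyme, Aldh1a2 (25.8 against 171), which makes retinoic acid, Foxc2 (7.79 against 35.1), and the Notch ligand Dll4 (0.506 against 2.83). Msc is among the 10 leading genes of the myogenic-like cluster (28 cells in Tbx1+/+ and 281 in Tbx1neo2/neo2 carrier) and Aldh1a2 of the mesothelial-like cluster (267 and 53 cells), and the part of these cell numbers in the class levels was not tested. Of 20 partners and cofactors 16 could be tested, and 4 were higher and 9 lower, with a median of -0.75. The homeobox genes Irx5 (40.9 against 2.58 CPM), Irx3 (29.3 against 4.11), and Pitx1 (5.995 against 1.16), and Mef2c (95.6 against 55.1), were higher. Gata4 (1.27 against 8.51 CPM), Wt1 (8.29 against 44.4), Gata5 (0.827 against 3.91), and Hand1 (0.214 against 0.872), which work with T-box factors in heart and mesothelium, were lower. Wt1 is also in the marker list that named the mesothelial-like cluster. The part of the mesothelial-like cell numbers in the partner levels was not tested. Of the 9 genes that lie beside Tbx1 on chromosome 16, all of which could be tested, 1 was called higher (Gp1bb, 1.57 against 0.988 CPM) and none lower, with a median of -0.09.

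With minoxidil, 26 pathway genes could be tested, of which 7 were higher and 11 lower than in Tbx1neo2/neo2 carrier. Over all genes tested in mesenchyme, 12.6% were called higher and 11.4% lower with minoxidil, and 11.7% higher and 12.1% lower with PGE2. Tcf21 (101 CPM), Aldh1a2 (138), Foxc2 (34.7), and Dll4 (3.02) were higher, and Msc (0.543) and Cyp26a1 (0.513 against 2.78), which breaks down retinoic acid, were lower. Of the 16 partners 9 were higher and 4 lower, with Gata4 (7.18 CPM), Gata5 (3.92), Wt1 (38.4), and Hand1 (0.875) higher and Irx5 (2.48), Irx3 (3.08), Pitx1 (0.966), and Mef2c (53.6) lower. With PGE2, 8 of 26 pathway genes were higher and 10 lower, with Tcf21 (41.3 CPM), Foxc2 (27.6), Aldh1a2 (87.1), and Dll4 (1.38) higher and Msc (0.125), Cyp26a1 (0.0836), and Fgf8 (0.0418) lower. Of the 16 partners 6 were higher and 3 lower, with Hand2 (107 against 34.1 CPM), Gata6 (196 against 96.8), Gata5 (2.05), and Gata4 (3.01) higher and Irx3 (2.09), Irx5 (1.21), and Pitx1 (0.0418) lower. The 3 lists had medians between -0.54 and 0.82 on the log2 scale in the drug comparisons, and no neighbour of Tbx1 was called in either. The medians over all genes tested were -0.02 with minoxidil and -0.06 with PGE2. The part of cluster sizes in these class levels was not tested.

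Tbx3os1 and Gm43050, transcripts next to Tbx3 and Tbx5, had the same order of libraries as those genes. Tbx3os2, 371 bases from Tbx3, was rare and did not keep this order, with 0, 34, 2, and 1 UMIs in mesenchymal cells. Tbx3os1, an antisense transcript that overlaps Tbx3 by 697 bases on the opposite strand (119570130 to 119671365), was at 7.4995, 64.5, 3.89, and 6.65 CPM in mesenchymal cells. Gm43050 is annotated as a lincRNA on the opposite strand, 748 bases before the start of Tbx5 (119828448 to 119831920), and was at 1.78, 15.2, 1.45, and 1.17 CPM. In chondrocyte-like cells Gm43050 was at 0.144, 24.2, 0, and 0 CPM, and in mesothelial-like cells at 9.79, 8.46, 11.6, and 10.5 CPM. Whether reads were counted by strand is not given in the sources used here, so Tbx3 and Tbx3os1 cannot be told apart where they overlap.

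Likeness between genes was described as Pearson r of log2(CPM + 1) over 58 points, each a named cluster of at least 50 cells in 1 library, against 15623 other genes. The points share libraries and depth, so r is given as a description. The gene most like Tbx5 was its neighbour Gm43050 (r = 0.965), followed by Hs3st3a1 and Hoxc5 (0.918 each), and that most like Tbx3 was Enpp2 (0.953), followed by Mab21l2 (0.910) and Snai1 (0.907). Tbx2 was most like Gpr153 (0.945), Zim1, and Col26a1 (0.942 each), and Tbx18 most like Tmem151a (0.929), 5033428I22Rik (0.927), and Rarres2 (0.909). The rarer members had lower values: Tbx4 with Asb9 (0.866), Pappa2 (0.858), and Prg4 (0.854), Tbx15 with Hpse2 (0.837), Hoxc6 (0.774), and Hoxc9 (0.772), and Tbx20 with Colec11 (0.798), Gucy1a3 (0.787), and Gm26682 (0.748). Tbx1 was most like Slc35g2 (0.858), Syn2 (0.800), and Ece1 (0.790). Between members, r was 0.880 for Tbx2 with Tbx3, 0.807 for Tbx2 with Tbx18, and 0.785 for Tbx4 with Tbx5, and that of Tbx1 with the others lay between -0.09 and 0.26.

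In single mesenchymal cells thinned to 5000 UMIs, at least 1 member was detected in 52.5%, 68.7%, 43.3%, and 40.4% of cells, and exactly 2 in 11.9%, 21.4%, 7.99%, and 7.59%. In Tbx1neo2/neo2 carrier, 43.1% (41.0 to 45.3) of the cells with a Tbx5 UMI also had one of Tbx3, against 33.3% (31.9 to 34.8) of the cells without. A Tbx18 UMI was in 3.79% (3.01 to 4.69) of the Tbx5 cells against 6.36% (5.65 to 7.13) of the others. In Tbx1+/+ carrier the latter relation was turned, with Tbx18 in 39.6% (30.3 to 49.6) of 106 Tbx5 cells against 12.9% (11.7 to 14.2) of the others. Mesothelial-like cells, which had high levels of both genes in each library, made up 9.31% of the class in Tbx1+/+ carrier and 0.811% in Tbx1neo2/neo2 carrier, and their part in this was not tested.

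Beyond the 8 members, 7 of the 9 other T-box genes measured had at least 20 UMIs in a class of 1 library. Mga, which pairs a T-domain with a second DNA-binding domain, was at 62.4, 69.4, 60.2, and 65.9 CPM in mesenchymal cells and at 4.67 to 66.4 CPM in other classes. Tbx21, the T-bet of innate and T lymphocytes, was at 1.21, 1.21, 0.776, and 0.908 CPM in hematopoietic cells, and Eomes, its relative in cytotoxic cells, reached 0.725 CPM there. Tbx19 reached 0.654 CPM in hematopoietic cells. Tbx6, Tbx22, and Tbr1 had 21, 24, and 25 UMIs in the mesenchymal cells of Tbx1neo2/neo2 carrier, of which Tbx22 was called higher than in Tbx1+/+ carrier, with 2 UMIs.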

How the data were processed

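The deposited files hold unnormalized UMI counts per gene and barcode, which the authors made with Cell Ranger 5.0.1 on mm10, per the submitters' processing notes. Library chemistry and the use of strand in counting are not given in the sources used here. Cells in which 200 or more genes were detected and no more than 10% of UMIs were mitochondrial were integrated and clustered in Seurat 5.3.0 (R 4.3.3) with 2000 variable genes, from which the T-box genes and related lists were left out, 30 dimensions, and resolution 0.3. A cluster was named from its best marker list if 3 of its markers were each detected in 10% of its cells, and stayed unnamed if its UMIs were low or a second class scored above 0.3, a limit set after the clusters were seen. Names are rebuilt and are not the authors' own.

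UMIs were summed per class and library in Python 3.11.15 (scipy 1.17.1). With 1 library per condition no test was possible, and intervals cover counting error only. A count of 0 was set to a floor of 3 counts for a ratio. Scrublet (scanpy 1.11.5) marked 5.62%, 0%, 1.59%, and 1.73% of kept cells as doublets, which were kept. It did not work in the Tbx1neo2/neo2 carrier library, in which it marked none. Alternatives covered filters, clustering, edgeR 4.0.16 TMM factors, depth, and the makeup of the class.

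The members, lists, and comparisons were chosen with earlier results of these data known. From each list the up to 4 called genes with the largest ratio in each direction were named, and for likeness the 3 genes with the highest r among those with at least 200 UMIs. Some genes that this rule picks are not reported here. Coordinates and sequences come from GENCODE vM21 on GRCm38, the assembly that mm10 denotes.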

Additional observations from a re-analysis of the deposited data

Results flagged for a closer look

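Within the comparison of the carrier libraries, Tbx2 and Tbx18 had opposite directions in different mesenchymal clusters, and the intervals of each pair of ratios lay on opposite sides of 0. The log2 ratio of Tbx1neo2/neo2 carrier to Tbx1+/+ carrier was 1.25 for Tbx2 in smooth muscle-like cells and -0.90 in cycling mesenchymal cells. For Tbx18 it was 1.16 in capsular fibroblast-like cells and -3.14 in chondrocyte-like cells. Against Tbx1neo2/neo2 carrier, minoxidil had 0.64 for Tbx2 in chondrocyte-like cells and -1.14 in smooth muscle-like cells, and 2.55 for Tbx18 in chondrocyte-like cells and -1.24 in capsular fibroblast-like cells. PGE2 had 0.65 and -2.33 for Tbx2 in the same 2 clusters, and 3.28 for Tbx18 in smooth muscle-like cells against -0.90 in capsular fibroblast-like cells. Each difference between clusters was not tested, since there is 1 library per group. All 3 comparisons share the Tbx1neo2/neo2 carrier library, and the clusters named here are the extremes among those with enough UMIs.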

How the results depend on the processing

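Of 118 summary values under the alternatives, 108 stayed the same and 10 moved. Most of them are counts of called members, which have no direction and stayed the same if within 1.5-fold. A reversal could be scored only for epithelial Tbx1, the 1 called ratio among the 3 Tbx1 ratios, and it kept its sign. Mesenchymal Tbx1 was not called, at -0.53, so its change of sign below does not count as a reversal. With cells of up to 5% mitochondrial UMIs, the members called higher with minoxidil went from 3 to 1 and with PGE2 from 1 to 2, and the log2 ratio of Tbx1 between the carrier libraries was 0.39 in mesenchyme and -0.30 in epithelium. In thinned cells the members called higher were 1 with minoxidil and 0 with PGE2, and endothelial Tbx1 had 0.12. A fold limit of 2 left 1 member higher with minoxidil. Among alternatives chosen after seeing the data, the mean over 5 clusters gave mesenchymal Tbx1 -1.48, and leaving out the parathyroid-like cluster gave epithelial Tbx1 -0.38. The cause was not tested. Of 276 ratios of members, 231 stayed within the error of the main value and 45 moved, and 274 kept their sign, the exceptions being uncalled values of Tbx1 and Tbx18. Leaving out the highest doublet scores, also chosen after seeing the data, removed 8.55% of Tbx1neo2/neo2 carrier cells. Rare members are limited by depth, with 11 Tbx15 UMIs in Tbx1+/+ mesenchyme. No paired analysis was possible because each group has 1 library.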

Other observations

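Hox genes, which record the position of mesenchyme along the body axis, were set beside Tbx5 in thinned mesenchymal cells. In Tbx1neo2/neo2 carrier 89.6% of the cells had a UMI of at least 1 of 39 Hox genes, and Tbx5 was detected in 34.4% of them against 19.6% of the cells without. By cluster these shares were 35.5% against 13.3% in cycling mesenchymal, 39.6% against 22.9% in chondrocyte-like, 44.6% against 39.4% in smooth muscle-like, and 30.5% against 25.4% in capsular fibroblast-like cells. In Tbx1+/+ carrier 76.4% of mesenchymal cells had a Hox UMI, and Tbx5 was detected in 3.99% of them against 2.82% of the others.

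Among the lymphatic markers in endothelial cells, Lyve1, a hyaluronan receptor, was at 1.72, 4.49, 1.51, and 399 CPM, and Prox1, the regulator of lymphatic fate, at 18.2, 6.66, 8.11, and 130 CPM, in the order Tbx1+/+ carrier, Tbx1neo2/neo2 carrier, minoxidil, and PGE2. Flt4, the receptor for lymphatic growth factors, was at 55.9, 60.5, 64.2, and 93.2 CPM. Tbx1, which is known to act in lymphatic endothelium, is given for the same cells in the report.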
